A study of Mus musculus with 6 samples.

Results

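The proteasome genes described here are the 51 genes, of 20482 listed, whose symbol starts with Psm, followed by a letter from a to g and a number. They comprised 14 constitutive core subunits (Psma1 to Psma7 and Psmb1 to Psmb7), 5 immunoproteasome genes (Psmb8, Psmb9, Psmb10, Psme1 and Psme2) and 17 subunits of the regulatory cap (Psmc and Psmd). A further 3 Psmd genes encode assembly chaperones of the cap (Psmd5, Psmd9 and Psmd10), 4 encode assembly chaperones of the core (Psmg1 to Psmg4), and 3 encode other activators or an inhibitor (Psme3, Psme4 and Psmf1). Psma8 is a core subunit known for its place in the testis. The remaining 4 matched by name only: the pseudogenes Psmb6-ps2 and Psmb7-ps2, the recombination factor Psmc3ip, and Psme2b, a near copy of Psme2. Of the 51, 49 passed the filter on low counts, among 14392 genes tested. The pseudogenes did not, with at most 4 counts in any tumour.

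The proteasome is the barrel-shaped protease that degrades proteins tagged with ubiquitin. Its core stacks rings of alpha subunits, which form the gate, around rings of beta subunits, which carry the cutting sites, and the cap unfolds and feeds in the substrate with its ring of ATPases. Interferon gamma induces 3 alternative catalytic subunits and the activator ring made of Psme1 and Psme2, which favour the making of peptides for MHC class I, and white blood cells carry these subunits even without it. Most other cells use mainly the constitutive form.

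RNA was sequenced from 6 tumours of H22, a mouse hepatocellular carcinoma line, grown under the skin of the flank of wild-type male C57BL/6 mice that were 6 weeks old at implantation. Lenvatinib inhibits several receptor tyrosine kinases. The 3 resistant tumours (H22-LR) came from mice given lenvatinib at 100 mg/kg per day into the peritoneum on 2 days a week, for 2 cycles. The 3 sensitive tumours (H22-NR) came from control mice; for them the protocol names lenvatinib as well as the vehicle, PBS with 0.1% DMSO, and the treatment field of all 6 tumours reads as untreated. The drug and the resistance cannot be told apart in this design. Each sample was a piece of whole tumour with its host vessels and immune cells, the line is a single one, and all tumours share it.

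Total counts ran from 15995403 to 17545098 per tumour, and 3 counts equal 0.171 to 0.186 CPM, the count divided by the scaled library size and brought to a common total. Of the liver lineage transcripts, Alb, albumin, lay at 112 to 198 CPM and Afp, alpha-fetoprotein, at 11.5 to 22.8 CPM over the 6 tumours. Sensitive tumour 2 stood apart in immune transcripts. Its 6 B and plasma cell markers summed to 2304 CPM against 1.25 to 15.6 CPM in the other tumours, and its 6 T cell markers to 309.6 CPM against 6.03 to 34.3 CPM. For many results that rest on it, a value without it is given as well.

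Mean levels of most constitutive core and cap genes lay slightly higher in resistant tumours, and those of the interferon-inducible catalytic subunits Psmb8 and Psmb9 lower, but no member passed the test. By edgeR's quasi-likelihood test with Benjamini-Hochberg adjustment over all genes, 0 of 49 members had an adjusted p under 0.05, and the smallest was 0.51. The same held for all genes, of which 0% were called. At an unadjusted p under 0.05 there were 5 members higher in resistant tumours (Psmb3, Psma1, Psmb4, Psma6 and Psmc3) and 0 lower, against 4.02% of all genes higher and 5.73% lower. DESeq2, which called 0.709% of all genes, and limma-voom called 0 members as well. At an unadjusted p under 0.05 limma-voom had 4 members higher and 0 lower, where 4.13% of all genes were higher. At that threshold DESeq2 had 4 members higher and 2 lower, the latter being Psmb8 and Psmb9, against 3.91% and 7.83% of all genes. With libraries scaled by the total count alone there were 11 members higher and 0 lower, and the shares over all genes turned to 5.66% higher and 4.06% lower.

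By direction alone, 40 of the 49 members had a log2 fold change above 0 (resistant minus sensitive), against 47.3% of all genes tested, and 9 below 0, against 52.7%. In 11 members all 3 resistant tumours lay above all 3 sensitive ones, against 8.41% of all genes, and in 0 members below, against 7.54%. The subunits of a class were measured in the same libraries, so they are not independent of each other.

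**Figure D1:**
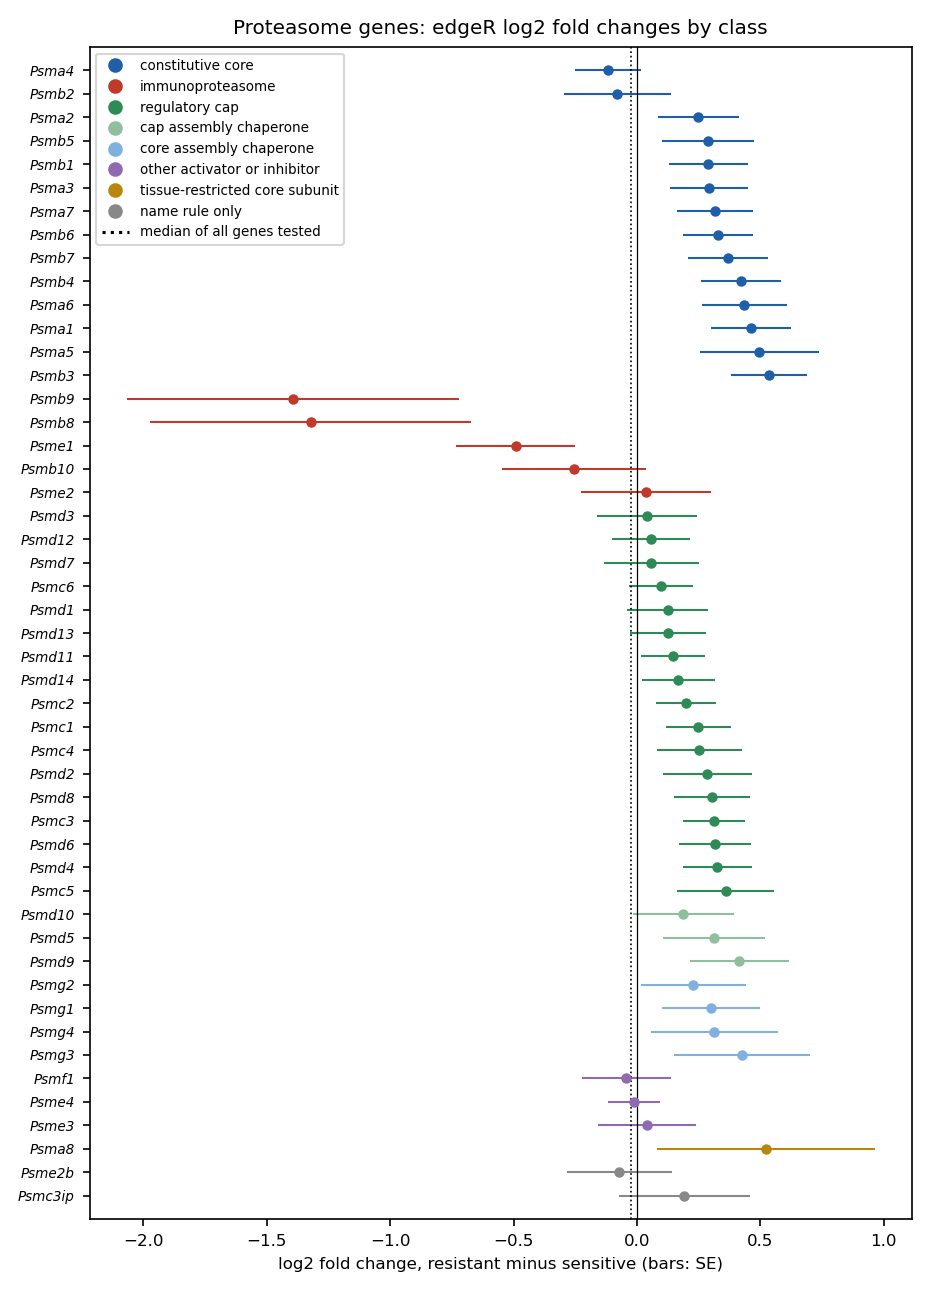
Log2 fold change (resistant minus sensitive, 3 tumours each) of each of the 49 tested genes, by class, with its standard error as a bar; the dotted line is the median of all genes tested, at -0.02. Core and cap genes lie mostly to the right of zero, between -0.12 and 0.53, while Psmb8 and Psmb9 lie at -1.32 and -1.39 with the longest bars.

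Among the 14 constitutive core subunits, 12 had a positive log2 fold change, with a median of 0.32 and a range from -0.12 (Psma4) to 0.53 (Psmb3), beside a median of -0.02 over all genes tested. The alpha ring had a median of 0.31 and the beta ring a median of 0.33. In 6 of the 14 all resistant tumours lay above all sensitive ones (Psma1, Psma6, Psmb3, Psmb4, Psmb6 and Psmb7), against 8.41% of all genes tested. Without sensitive tumour 2 the core median was 0.23, and 12 of 14 were again above 0. The alpha ring then had a median of 0.21 and the beta ring a median of 0.23.

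Psmb3, a beta subunit without a cutting site of its own, had the smallest p of all members. It measured 93.7, 85.2 and 111 CPM in sensitive tumours 1, 2 and 3, and 148, 120 and 152 CPM in resistant tumours 1, 2 and 3. All resistant values were above all sensitive ones, with resistant tumour 2 closest to them. The log2 fold change was 0.53 ± 0.15 (standard error, SE; unadjusted p = 0.0112, adjusted p = 0.51, edgeR quasi-likelihood test). In the same tumour order, Psmb4, another structural beta subunit, measured 131, 116 and 151 CPM in sensitive and 176, 151 and 206 CPM in resistant tumours. Sensitive tumour 3 and resistant tumour 2 nearly met, at 150.9 and 151.2 CPM, and the fold change was 0.42 ± 0.16 (adjusted p = 0.51, edgeR).

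In the alpha ring, Psma1 measured 159, 119 and 176 CPM in sensitive and 209, 198 and 218 CPM in resistant tumours, and Psma6 measured 220.5, 184 and 276 CPM against 319, 283 and 319 CPM. Both genes were lowest in sensitive tumour 2, and neither had overlapping groups. Their log2 fold changes were 0.46 ± 0.16 and 0.43 ± 0.17 (adjusted p = 0.51 for each, edgeR). Psma5 stood at 0.50 ± 0.24, with overlapping groups, and at 0.29 without sensitive tumour 2. Psma4 went the other way: it measured 183, 141 and 147 CPM in sensitive and 137, 147 and 150 CPM in resistant tumours, which overlap throughout (-0.12 ± 0.13, adjusted p = 0.742, edgeR). Psmb2 was the other core gene below 0, at -0.08 ± 0.22. Psma4 was at -0.19 and Psmb2 at -0.25 without sensitive tumour 2.

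The 3 catalytic subunits of the constitutive core are those whose places the immune subunits take. Psmb5, which carries the chymotrypsin-like site, measured 28.6, 39.4 and 39.7 CPM in sensitive and 44.4, 39.1 and 48.03 CPM in resistant tumours. The groups overlapped through resistant tumour 2, and the log2 fold change was 0.29 ± 0.19 (adjusted p = 0.578, edgeR; 0.36 without sensitive tumour 2). Corrected for gene length it was 0.07, and for length and GC 0.02. So corrected, Psmb6 stood at 0.30 and 0.27 and Psmb7 at 0.35 and 0.44. Psmb6, with the caspase-like site, measured 93.2, 81.8 and 109 CPM in sensitive and 124, 111 and 122 CPM in resistant tumours, with no overlap (0.33 ± 0.14, adjusted p = 0.512, edgeR). Psmb7, with the trypsin-like site, measured 136, 103 and 155 CPM against 171, 166 and 172 CPM. Here the resistant tumours were close together and above all sensitive ones (0.37 ± 0.16, adjusted p = 0.515, edgeR; 0.22 without sensitive tumour 2). The Psmb7 locus overlaps Nek6 on the opposite strand, and the sources used here do not say whether reads were counted by strand.

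All 17 cap subunits had a log2 fold change above 0, though a small one: the median was 0.20 and the range ran from 0.04 (Psmd3) to 0.36 (Psmc5). The median was 0.25 over the 6 ATPases (Psmc1 to Psmc6) and 0.15 over the 11 other subunits. All resistant tumours lay above all sensitive ones in 4 of 17 (Psmc1, Psmc2, Psmc3 and Psmd4), against 8.41% of all genes tested. Without sensitive tumour 2 the median was 0.13 and 13 of 17 were above 0. It was then 0.14 over the ATPases and 0.05 over the other subunits, of which 7 of 11 were above 0.

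The ATPase Psmc3 measured 128, 124 and 150.3 CPM in sensitive and 174, 152 and 173 CPM in resistant tumours. The resistant values lay above the sensitive ones by a narrow gap, 150.3 to 152.5 CPM, and the log2 fold change was 0.31 ± 0.13 (unadjusted p = 0.0437, adjusted p = 0.51, edgeR). Psmd4, a ubiquitin receptor of the cap, measured 109, 89.4 and 119 CPM against 142, 127.5 and 128 CPM, with no overlap (0.33 ± 0.14, adjusted p = 0.512, edgeR). The lid subunits Psmd6 and Psmd8 had values of 0.32 ± 0.15 and 0.30 ± 0.15 (0.19 for Psmd8 without sensitive tumour 2). Psmd6 measured 91.4, 84.6 and 109.7 CPM in sensitive and 132, 109.1 and 115 CPM in resistant tumours, and Psmd8 measured 259, 184 and 212 CPM against 287, 258.6 and 262 CPM. In both, a sensitive and a resistant tumour came within 1 CPM of each other and crossed. The deubiquitinase Psmd14 and its partner Psmd7 stood at 0.17 ± 0.15 and 0.06 ± 0.19, and at 0.04 and -0.12 without sensitive tumour 2.

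**Figure D2:**
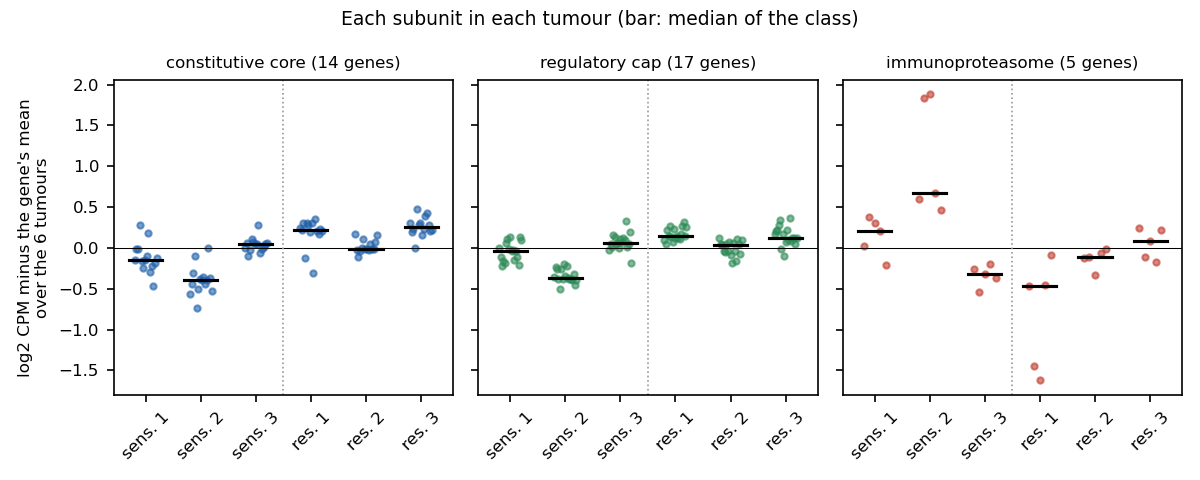
Each point is a subunit in a tumour, as log2 CPM minus the gene's mean over the 6 tumours, for the core (14 genes), the cap (17 genes) and the immunoproteasome (5 genes); the bar is the class median. Sensitive tumour 2 lies lowest in core (-0.40) and cap (-0.37) and highest in the immunoproteasome (0.67), and resistant tumour 1 is lowest in the latter (-0.47).

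Core and cap were lowest in the same tumour. The class median of centred log2 CPM was -0.15, -0.40 and 0.05 in sensitive and 0.22, -0.01 and 0.26 in resistant tumours for the core, and -0.04, -0.37 and 0.07 against 0.15, 0.03 and 0.12 for the cap. In both classes resistant tumour 2 lay below sensitive tumour 3, so that the class medians of the groups overlapped. Sensitive tumour 2 was the lowest of the 6 tumours in 29 of the 31 core and cap genes, where 29.8% of all genes tested were lowest in it. That tumour also held the most leukocyte RNA (below), and the share of mitochondrially encoded protein genes in the counts, a sign of RNA quality and of tissue makeup, was 16.4%, 9.71% and 8.08% in sensitive and 7.04%, 8.11% and 5.6% in resistant tumours. The part of either in the core and cap differences was not tested.

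The immunoproteasome showed the opposite pattern and a wider spread. Of its 5 genes 1 was above 0, the median log2 fold change was -0.49, and all 5 had overlapping groups. All 5 were highest in sensitive tumour 2, where 32.6% of all genes tested were highest, and 4 of 5 were lowest in resistant tumour 1, against 24.3% of all genes. The class median of centred log2 CPM was 0.20, 0.67 and -0.32 in sensitive and -0.47, -0.11 and 0.08 in resistant tumours. Sensitive tumour 3 thus lay below resistant tumours 2 and 3. Without sensitive tumour 2 the median was -0.24, and 2 of 5 were above 0. In whole tumours, fewer cells that carry these subunits and less RNA per cell cannot be told apart.

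Psmb8, which takes the place of Psmb5, lies in the MHC region beside Psmb9 and Tap1 (chr17:34197721-34201454, plus strand, GRCm38, GENCODE M21). It measured 42.6, 117 and 22.6 CPM in sensitive tumours 1, 2 and 3 (60.8 ± 49.9, mean ± SD, n = 3). In resistant tumours it measured 12.01, 30.5 and 30.4 CPM (24.3 ± 10.6, n = 3). Sensitive tumour 2 was far above all others, sensitive tumour 3 was below 2 resistant tumours, and the log2 fold change was -1.32 ± 0.65 (unadjusted p = 0.0829, adjusted p = 0.522, edgeR). Without sensitive tumour 2 it was -0.42.

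Psmb9 (chr17:34181987-34187764, minus strand), which replaces Psmb6, was likewise highest in sensitive tumour 2 and lowest in resistant tumour 1: it measured 15.4, 45.9 and 10.0 CPM in sensitive and 4.04, 9.91 and 13.2 CPM in resistant tumours. Sensitive tumour 3 lay below resistant tumour 3. Counts behind these values ran from 68 in resistant tumour 1 to 770 in sensitive tumour 2. The log2 fold change was -1.39 ± 0.67 (adjusted p = 0.52, edgeR), and -0.49 without sensitive tumour 2. Psmb9 overlaps Tap1 on the opposite strand, so reads of the pair may have been mixed if strand was not used in counting.

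Psmb10, which replaces Psmb7, differed little: 29.4, 44.0 and 24.2 CPM in sensitive and 21.04, 26.6 and 34.3 CPM in resistant tumours. The groups overlapped broadly (-0.25 ± 0.29, adjusted p = 0.742, edgeR), and the sign turned to 0.03 without sensitive tumour 2. It lies on chromosome 8, apart from the other immune subunits.

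The activator subunits Psme1 (chr14:55578123-55581529, plus strand) and Psme2 (chr14:55587441-55591113, minus strand) build a ring together. Psme1 measured 70.7, 97.8 and 53.7 CPM in sensitive and 44.9, 59.0 and 54.2 CPM in resistant tumours, with sensitive tumour 3 inside the resistant range (-0.49 ± 0.24, adjusted p = 0.522, edgeR; -0.24 without sensitive tumour 2). Psme2 measured 19.0, 30.3 and 17.1 CPM against 20.6, 21.8 and 25.7 CPM, with all resistant tumours between the lowest and the highest sensitive one (0.04 ± 0.26, adjusted p = 0.965, edgeR). Reads of Psme2 can be shared with Psme2b on chromosome 11, which measured 57.8, 81.6 and 49.4 CPM in sensitive and 53.1, 60.7 and 66.0 CPM in resistant tumours. Psme2 held 24.7% to 28.0% of the pair's summed CPM in every tumour. The sum differed between groups by -0.01 on the log2 scale (exact two-sided permutation p = 1, n = 3 per group), and the value of Psme2b alone was -0.07 ± 0.21 (adjusted p = 0.908, edgeR; 0.16 without sensitive tumour 2).

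**Figure D3:**
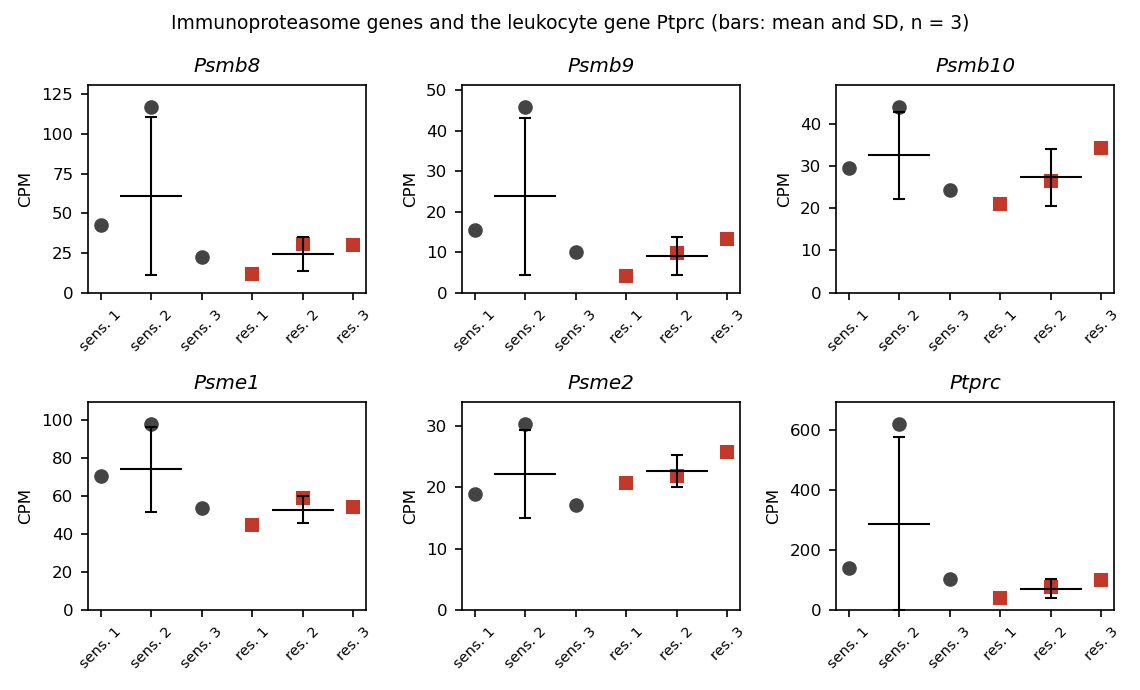
CPM of the 5 immunoproteasome genes and of the leukocyte gene Ptprc in each tumour, with the mean and SD of each group (n = 3). Sensitive tumour 2 is the highest point in all 6 panels, at 117 CPM for Psmb8 and 618.5 CPM for Ptprc, and the other sensitive tumours mostly lie among or near the resistant ones.

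The stretches before the start of 4 of these genes are shown with a motif match that each holds. Psmb8 holds the gamma-activated site of interferon signalling, and Psmb9 the CCAAT box, a motif counted over all promoters below. Psmb5 and Psmb6 hold the core of the antioxidant response element, the type of element through which NRF1 (Nfe2l1) and NRF2 act on proteasome genes. The stretches are the 250 bases before the RefSeq start on build GRCm38.p6, 5′ to 3′ on the gene's strand, with the match in capitals.
Psmb8: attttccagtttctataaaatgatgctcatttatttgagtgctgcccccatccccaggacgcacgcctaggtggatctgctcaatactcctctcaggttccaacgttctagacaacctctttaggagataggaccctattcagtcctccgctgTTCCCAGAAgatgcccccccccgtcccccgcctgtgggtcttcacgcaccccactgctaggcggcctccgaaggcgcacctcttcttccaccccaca
Psmb9: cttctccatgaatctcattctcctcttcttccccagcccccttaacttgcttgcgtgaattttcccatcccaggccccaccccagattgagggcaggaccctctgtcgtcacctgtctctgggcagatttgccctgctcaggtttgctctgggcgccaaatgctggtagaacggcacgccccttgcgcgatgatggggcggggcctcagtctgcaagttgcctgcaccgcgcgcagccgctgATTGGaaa
Psmb5: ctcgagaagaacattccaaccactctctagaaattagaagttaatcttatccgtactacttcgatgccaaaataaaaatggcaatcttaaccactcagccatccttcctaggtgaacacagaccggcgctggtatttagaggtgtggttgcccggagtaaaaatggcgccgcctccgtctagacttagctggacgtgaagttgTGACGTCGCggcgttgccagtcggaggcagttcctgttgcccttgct
Psmb6: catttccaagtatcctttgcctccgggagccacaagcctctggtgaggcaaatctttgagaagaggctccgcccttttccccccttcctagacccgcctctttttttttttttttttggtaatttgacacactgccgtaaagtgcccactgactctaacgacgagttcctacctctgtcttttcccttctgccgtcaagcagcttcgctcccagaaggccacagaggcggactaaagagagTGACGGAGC

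These stretches lie at chr17:34197945-34198194 (plus strand, Psmb8), chr17:34187331-34187580 (minus, Psmb9), chr14:54617996-54618245 (minus, Psmb5) and chr11:70525107-70525356 (plus, Psmb6). The Psmb8 and Psmb9 stretches lie inside the spans that GENCODE release M21 gives these genes, which start further upstream there, and the Psmb9 stretch overlaps the 5′ end of Tap1. The match TTCCCAGAA in Psmb8 begins 97 bases before the start and reads as the motif on both strands. In Psmb5 the match TGACGTCGC begins 47 bases, and in Psmb6 TGACGGAGC begins 9 bases, before the start. In Psmb9 the CCAAT box is read on the opposite strand, as ATTGG, 8 bases before the start.

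The same motifs were counted on both strands in the 250 bases before the start of the 41 members in the RefSeq table, beside all 32851 promoters of the table. TTCNNNGAA was found in 2 members (Psmb8 and Psmg1) and in 7.02% of all promoters. The interferon-stimulated response element was found in 3 members (Psmb3, Psmd4 and Psmd9) and in 2.98% of all promoters. TGACNNNGC was found in 5 members (Psmb5, Psmb6, Psmc6, Psmd12 and Psmd9) and in 10.2% of all, and CCAAT in 14 members and in 33.9% of all. When the 50 bases after the start were added, the interferon-stimulated response element was in 5 members, with Psmg4 and Psme1 added, and in 3.44% of all promoters. TTCNNNGAA was then also in Psmd2, with 8.30% of all promoters, and TGACNNNGC in Psme4, with 12.4%. The added match of Psme1 lies on its opposite strand, at base 10 after the start, within chr14:55578493-55578522 (plus strand).
Psme1: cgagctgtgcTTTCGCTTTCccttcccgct
A match is only a run of letters: of the 5 immunoproteasome genes, Psmb8 held TTCNNNGAA and Psme1, past the start, the interferon-stimulated response element, while Psmb9, Psmb10 and Psme2 held neither in these windows.

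Set against the constitutive subunit it replaces, each immune subunit had a lower mean ratio in resistant tumours, within the spread of the tumours. The ratio was taken per tumour from the deposited FPKM (fragments scaled by gene length and by total count), which needs no scaling between tumours. Psmb8 to Psmb5 was 0.337, 0.674 and 0.129 in sensitive and 0.0612, 0.177 and 0.143 in resistant tumours. Sensitive tumour 3 lay below 2 of the resistant tumours, and the mean log2 ratio differed by -1.41 (exact two-sided permutation p = 0.3, n = 3 per group). Psmb9 to Psmb6 was 0.0816, 0.277 and 0.0453 against 0.0161, 0.0441 and 0.0533, a difference of -1.59 (exact permutation p = 0.2). Psmb10 to Psmb7 was 0.606, 1.2 and 0.438 against 0.345, 0.449 and 0.558, a difference of -0.63 (exact permutation p = 0.3). All 3 pairs of groups overlapped.

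Adjusted over the 3 ratios, each p was 0.3, and 0.1 is the smallest p that 3 against 3 tumours allow. Without sensitive tumour 2 the differences were -0.85, -0.86 and -0.22 (exact permutation p = 0.6, 0.4 and 0.6, n = 2 and 3). Only in sensitive tumour 2, and only for Psmb10, did an immune subunit exceed its constitutive counterpart in FPKM among these 3 pairs. The level of a ratio, unlike its difference between groups, depends on the gene lengths that the authors used, 3848 and 871 bases for Psmb8 and Psmb5, and for Psmb6, Psmb8, Psmb9 and Psme1 that length exceeds the whole span of the gene in GENCODE M21.

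**Figure D4:**
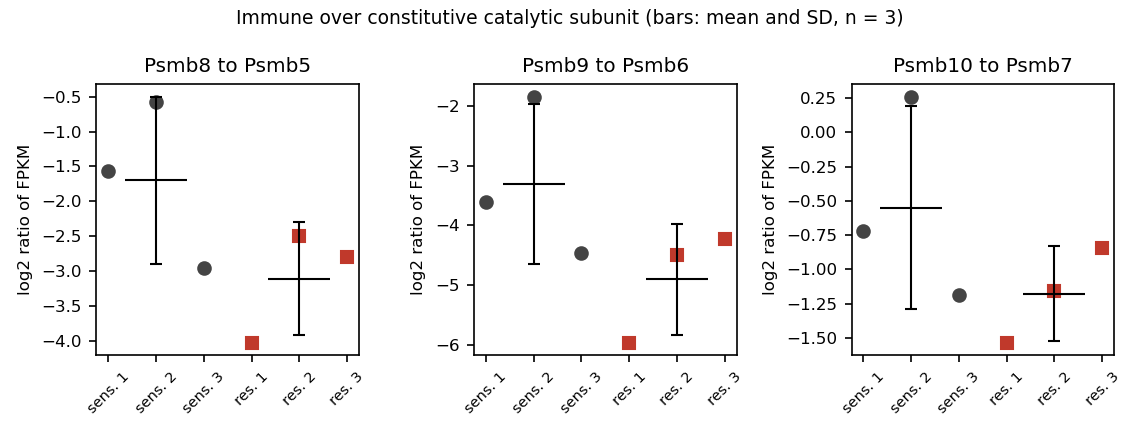
Log2 ratio of the FPKM of an immune subunit to that of the constitutive subunit it replaces, in each tumour, with the mean and SD of each group (n = 3). The groups overlap in all 3 panels, sensitive tumour 2 is the highest and resistant tumour 1 the lowest, and the differences of the means are -1.41, -1.59 and -0.63.

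Per length, 13 of the 14 core genes, all but Psma3, had a higher mean FPKM in sensitive tumours than any of the 5 immunoproteasome genes. Mean FPKM in sensitive tumours ran from 11.1 (Psma3) to 216 (Psmb1) over the core, from 9.99 (Psmd11) to 170.0 (Psmd7) over the cap, and from 3.66 (Psmb9) to 24.8 (Psmb10) over the immunoproteasome. In resistant tumours the same genes marked the ends, at 14.4 and 280.4 FPKM for the core, 11.7 and 188 FPKM for the cap, and 1.48 and 22.1 FPKM for the immunoproteasome. The lengths used for the core ranged from 871 to 6255 bases. The order within and between classes rests in part on the lengths used. In CPM, which takes no account of length, the sensitive mean of Psme1 (74.09) was above those of Psma3 (71.45) and Psmb5 (35.88). That of Psmb8 (60.78) was above Psmb5 alone, and all other core genes lay above the whole immunoproteasome.

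The log2 fold changes of all 7 assembly chaperones lay above 0. Corrected for gene length, and for length and GC, Psmg2 went from 0.23 to 0.064 and 0.062. Psmg4 went from 0.31 to 0.095 and 0.052, and Psmd10 to 0.097 and 0.15. The other chaperones then ran from 0.19 (Psmg1) to 0.45 (Psmd9). For the cap chaperones, Psmd9 had 0.42 ± 0.20, Psmd5 0.31 ± 0.21 and Psmd10 0.19 ± 0.21 on the log2 scale (adjusted p = 0.522, 0.586 and 0.73, edgeR), all with overlapping groups. Their median was 0.31, and 0.15 without sensitive tumour 2. Psmd9 measured 27.2, 23.6 and 33.0 CPM in sensitive and 38.2, 31.2 and 42.4 CPM in resistant tumours, where resistant tumour 2 lay under sensitive tumour 3. The 4 core chaperones, Psmg1 to Psmg4, had a median of 0.31, and 0.19 without sensitive tumour 2. Psmg1 measured 17.7, 15.7 and 18.6 CPM against 20.03, 18.9 and 25.1 CPM, without overlap, and the groups of the other 3 overlapped. All 7 chaperones were lowest in sensitive tumour 2.

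The other activators and the inhibitor had log2 fold changes near 0. Psme3, a nuclear activator ring that interferon does not induce, measured 396, 274 and 437 CPM in sensitive and 407, 342 and 389 CPM in resistant tumours, with overlap (0.04 ± 0.20, adjusted p = 0.947, edgeR). Psme4, a single-chain activator, had the smallest SE of the members, at 132, 138 and 129 CPM against 123.5, 138 and 134 CPM (-0.01 ± 0.10). Psmf1, an inhibitor of the core, measured 52.0, 43.5 and 56.3 CPM against 50.2, 40.4 and 56.8 CPM (-0.04 ± 0.18). These values were, without sensitive tumour 2, -0.13 (Psme3), 0.01 (Psme4) and -0.14 (Psmf1). The signs of these 3 values turned under other scalings or with a tumour left out. Psma8 was near the lower limit, with 13 to 39 counts per tumour and 0.52 ± 0.44, and Psmc3ip, which acts in recombination, stood at 0.19 ± 0.26 and, without sensitive tumour 2, at -0.02.

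Leaving out sensitive tumour 2 changed the immunoproteasome more than the other classes, as the plot of fold changes with and without it shows. Psmb8 and Psmb9 went from -1.32 and -1.39 to -0.42 and -0.49, Psme1 from -0.49 to -0.24 and Psme2 from 0.04 to 0.33. Over all members 37 had a positive log2 fold change in that fit, where 48.8% of all genes did, and 2 were higher and 0 lower at an unadjusted p under 0.05, where 6.37% of all genes passed in either direction. With sensitive tumour 3 left out instead, 16 members were higher and 3 lower at an unadjusted p under 0.05, against 6.4% and 11.4% of all genes. With resistant tumour 1 or resistant tumour 3 left out 1 member was higher, against 2.08% and 2.48% of all genes. In each of these fits 0 members had an adjusted p under 0.05 by edgeR.

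**Figure D5:**
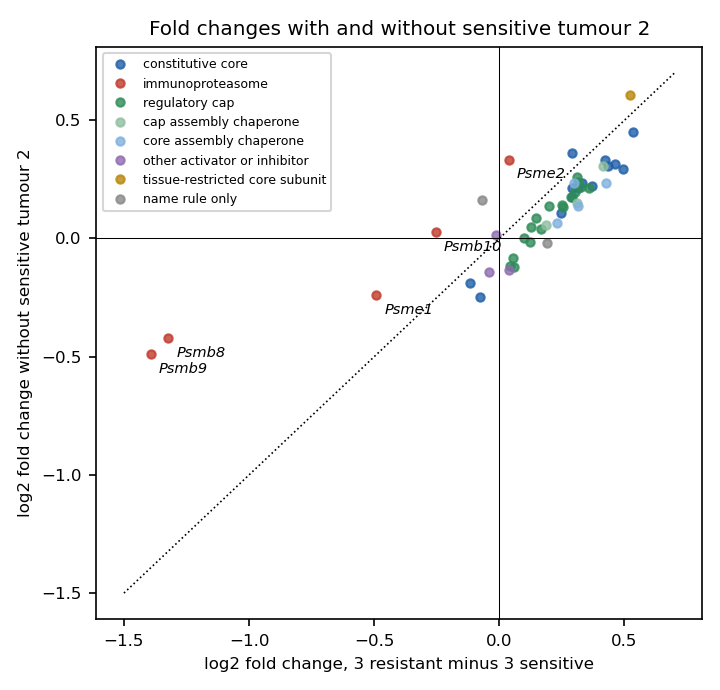
Log2 fold change of each tested member in all 6 tumours (x axis) and without sensitive tumour 2 (y axis); the dotted line marks equal values. Psmb8 and Psmb9 move from -1.32 and -1.39 to -0.42 and -0.49. Core and cap genes lie somewhat under the line, except Psmb5, which moves from 0.29 to 0.36.

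Genes that work with the proteasome but fall outside the name rule were followed by list, and 0 of them had an adjusted p under 0.05 (edgeR). Of 10 proteasome-associated genes 8 lay above 0, with a median of 0.14, and -0.01 without sensitive tumour 2. Those with the smallest p were Adrm1, a ubiquitin receptor of the cap, with 0.43 ± 0.17 (0.28 without that tumour), Pomp, the maturation factor of the core, with 0.36 ± 0.15, and Shfm1 (Sem1), a small lid subunit, with 0.37 ± 0.16. Pomp measured 102, 89.2 and 122 CPM in sensitive and 124, 132 and 145 CPM in resistant tumours, and in all 3 genes the resistant tumours lay above the sensitive ones. Of all genes tested 8.41% had that order, and picking the smallest p favours it. Zfand5, of the same list, had the opposite order, and the groups of the other listed genes overlapped. The 6 shuttle genes, which carry tagged proteins to the cap, had a median of -0.00, with 3 above and 3 below 0. The median was -0.16, with 5 of 6 below 0, without sensitive tumour 2.

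Among the genes that supply ubiquitin, Rps27a, which encodes ubiquitin fused to a ribosomal protein, measured 46.1, 44.5 and 56.03 CPM in sensitive and 59.4, 65.3 and 62.01 CPM in resistant tumours. Its groups were apart (0.35 ± 0.14, unadjusted p = 0.045, adjusted p = 0.51, edgeR). Ubb, which encodes a chain of ubiquitins, stood at -0.20 ± 0.28 and the activating enzyme Uba1 at 0.01 ± 0.15, and at 0.10 and -0.07 without sensitive tumour 2.

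NRF1, encoded by Nfe2l1, is the factor through which cells raise proteasome genes when the proteasome is blocked. Nfe2l1 RNA measured 69.4, 67.8 and 77.5 CPM in sensitive and 97.8, 57.01 and 69.7 CPM in resistant tumours, with resistant tumour 1 the highest and resistant tumour 2 the lowest (0.06 ± 0.21, adjusted p = 0.918, edgeR). RNA says nothing of its processing, by which the factor is known to be controlled. Of the 9 genes of this axis 8 lay above 0, with a median of 0.21, and 0.22 without sensitive tumour 2. The small Maf partner Maff measured 51.0, 35.4 and 64.5 CPM against 96.4, 93.3 and 61.6 CPM, so that resistant tumour 3 lay inside the sensitive range (0.74 ± 0.27, adjusted p = 0.51, edgeR).

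The interferon gamma signalling genes were, like the immunoproteasome, highest in sensitive tumour 2. All 11 lay below 0, with a median of -0.83, and -0.33 without sensitive tumour 2. Of the 11, 5 were lower at an unadjusted p under 0.05, against 5.73% of all genes, and 4 without sensitive tumour 2, against 3.15%. Irf1, a factor that binds the promoter of Psmb9 and Tap1, measured 59.3, 92.2 and 32.9 CPM in sensitive and 20.8, 30.2 and 37.7 CPM in resistant tumours, with overlap (-1.06 ± 0.40, adjusted p = 0.51, edgeR; -0.64 without sensitive tumour 2). Irf2 and Jak2 had -0.92 ± 0.27 and -0.57 ± 0.18, and -0.64 and -0.37 without that tumour. In both, as in 7.54% of all genes tested, all resistant tumours lay below all sensitive ones. The cytokine itself, Ifng, was close to the limit, at 1.05, 1.55 and 1.31 CPM in sensitive and 0.297, 0.0597 and 0.178 CPM in resistant tumours, from 1 to 26 counts. Its resistant tumours all lay below the sensitive ones (-2.82 ± 0.63, unadjusted p = 0.00322, adjusted p = 0.51, edgeR). Without sensitive tumour 2 its log2 fold change was -2.68.

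Of the 12 class I peptide loading genes 9 lay below 0, with a median of -0.72, and -0.19 without sensitive tumour 2. Of the 12, 4 were lower at an unadjusted p under 0.05, against 5.73% of all genes, and 0 without sensitive tumour 2, against 3.15%. Nlrc5, the transactivator of class I genes, measured 37.3, 141 and 29.8 CPM in sensitive and 8.86, 23.8 and 27.5 CPM in resistant tumours, without overlap (-1.79 ± 0.70, adjusted p = 0.51, edgeR; -0.74 without sensitive tumour 2). Tap1, a subunit of the peptide pump, measured 52.0, 137.5 and 26.7 CPM against 12.2, 23.2 and 35.5 CPM (-1.61 ± 0.65), and B2m, the light chain of class I, had -1.03 ± 0.41 (adjusted p = 0.51 for both, edgeR). Both were smaller in size without sensitive tumour 2, at -0.74 and -0.60. The chaperones Pdia3, Calr and Canx, which serve all of the endoplasmic reticulum, lay between 0.00 and 0.03, and sensitive tumour 2 was not their highest tumour.

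Leukocyte markers were also highest in sensitive tumour 2 and lowest in resistant tumour 1. The 6 leukocyte markers summed to 841, 2209 and 643 CPM in sensitive and 413, 709 and 725 CPM in resistant tumours, and all 6 had a log2 fold change below 0. Ptprc, the common leukocyte antigen CD45, measured 141, 618.5 and 103 CPM against 38.5, 76.6 and 98.6 CPM. T cell markers (6 of 6 below 0) summed to 34.3, 309.6 and 18.8 CPM against 6.78, 6.03 and 22.1 CPM, with Cd3d at 0 counts in resistant tumour 2. B and plasma cell markers (3 tested, all below 0) were at 15.6, 2304 and 7.03 CPM against 1.25, 5.49 and 5.65 CPM, with Ms4a1 at 0 counts in resistant tumour 2. Dendritic cell markers (5 of 5 below 0) summed to 42.7, 150.1 and 32.2 CPM against 21.6, 23.1 and 31.7 CPM. Without sensitive tumour 2 the tested markers of these lists stayed below 0, by less. The median log2 fold change went from -1.32 to -0.24 (leukocytes) and from -3.49 to -1.12 (T cells). It went from -5.78 to -1.15 for B and plasma cells and from -2.62 to -0.57 for dendritic cells.

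Endothelial markers were 4 of 4 below 0, with a median of -0.96, and -0.57 without sensitive tumour 2. They summed to 262, 405 and 157 CPM in sensitive and 97.3, 173 and 153 CPM in resistant tumours. Macrophage markers did not follow that order: 4 of 6 were above 0, and they summed to 965, 1028 and 596 CPM against 469.5, 1215 and 962 CPM. Skeletal muscle markers, 4 of 4 below 0, were concentrated in sensitive tumour 1 (978 CPM) and resistant tumours 1 and 2 (192 and 49.5 CPM), and were at most 1.85 CPM elsewhere. Of the 6 liver lineage markers 2 were above 0, and they summed to 206 to 422 CPM. Among them Alb was lower in every resistant tumour, at 121, 112 and 120 CPM against 167, 198 and 185.5 CPM in sensitive tumours (-0.64 ± 0.11, unadjusted p = 0.000935, adjusted p = 0.51, edgeR; -0.58 without sensitive tumour 2). The part of these cell types in the differences of the immunoproteasome, core and cap was not tested.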

How the data were processed

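The authors deposited 2 tables of 20482 genes with 6 columns: read counts per gene, as whole numbers, and FPKM, which the authors scaled by gene length and total count. HISAT2, StringTie and edgeR are named in the submitters' processing notes without versions or roles; the sources used here name no build, annotation, strand setting or rule for reads with several matches. Groups came from the titles, and replicates (3 per group) are biological per the series' design text. Counts were filtered with filterByExpr, scaled by TMM and tested with edgeR 4.0.16 (quasi-likelihood F-test, R 4.3.3, no block), with Benjamini-Hochberg adjustment over 14392 genes and a threshold of 0.05. CPM uses the TMM-scaled library sizes. The SE was derived from that test, as the size of the log2 fold change divided by the square root of its F statistic. DESeq2 1.42.0, limma 3.58.1, other scalings, filters, FPKM with pseudocounts of 1 and 0.1, length and GC corrections and leaving out each tumour were alternatives. Ratios were tested by exact permutation (SciPy 1.17.1, Python 3.11.15). Of the fits, only the edgeR quasi-likelihood fit was tested on simulated data, with changes larger than those of the core and cap. Of the identifiers, 20355 (99.4%) were found in GENCODE M21 (GRCm38), which gave positions; 18 members overlap another listed gene there. Values per tumour are given for the immunoproteasome, Psmb5 to Psmb7, up to 4 genes of smallest p per other class, and up to 3 per list with Nfe2l1, Nlrc5 and Irf1, except that some genes this rule takes are not reported here; Psma4, Psmb2, Psma5, Psmd7, Psmd14, Psme2b, Ubb, Uba1, Pdia3, Calr, Canx, Alb, Afp and Ptprc were added, some after their values were seen. Members and lists were chosen with earlier results of these data known.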

Additional observations from a re-analysis of the deposited data

How the results depend on the processing

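Under every alternative run, 0 members were called, and the class medians kept their sign: leaving out each tumour in turn gave 0.23 to 0.44 for the core, -0.67 to -0.24 for the immunoproteasome and 0.13 to 0.29 for the cap. The differences of the log2 ratios then ran over -2.04 to -0.85 (Psmb8 to Psmb5), -2.16 to -0.86 (Psmb9 to Psmb6) and -0.95 to -0.22 (Psmb10 to Psmb7). The number of members higher at an unadjusted p under 0.05 was 5, against 4.02% of all genes. It was 11 (5.66%) with total count scaling, 8 (4.93%) with upper quartile scaling, 12 (6.97%) on log2(FPKM + 1), 11 (6.97%) on log2(FPKM + 0.1) and 1 to 16 (2.08% to 6.4%) when each tumour was left out. The number lower was 0 (5.73%), but 2 (7.83%) by DESeq2 and 0 to 3 (2.14% to 11.4%) when each tumour was left out. The cause was not tested. With the replicate number as a replicate block, 11 members were higher, against 3.64% of all genes, the medians were 0.33 (core), -0.46 (immunoproteasome) and 0.20 (cap), and 0 members were called. Nothing in the labels says that same-numbered tumours pair, so the numbers are not taken to pair them. Deviations of same-numbered tumours correlated at 0.05, 0.31 and -0.16, and those of other pairs at -0.48 to 0.498. Deviations from a mean of 3 tumours sum to 0, so these correlations cannot decide on pairing. The immunoproteasome median was -1.32 over Psmb8, Psmb9 and Psmb10 alone, and the cap median 0.22 with its 3 chaperones, both chosen after seeing the data.

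Of 487 values of 27 named members under the alternatives, 462 kept their sign and 25 did not, all of them values of 5 members: Psmf1, Psme4, Psme2 and Psme3, near 0, and Psmb10, at -0.25. Many of the 27 were chosen for the smallest p of their class, so the tally does not stand for all members. Others turned as well with a tumour left out. Among them were Psma4 (0.029 without sensitive tumour 1), Psmb2 (0.051 without resistant tumour 1) and Psmd7 (-0.12 without sensitive tumour 2). Psmf1 was 0.040 with total counts, 0.032 on log2(FPKM + 1), 0.037 on log2(FPKM + 0.1), 0.018 with the length correction and 0.0003 with the length and GC correction. Psme4 was 0.066, 0.067, 0.072, 0.041 and 0.075 under the same settings, 0.028 with upper quartile scaling and 0.011 with no filter. Psme2 was -0.021 with the length and GC correction and -0.012 when summed with Psme2b, a choice made after seeing the data. Psmb5, Psmg2 and Psmg4 kept their sign but came near 0. They were 0.072, 0.064 and 0.095 with the length correction, and 0.022, 0.062 and 0.052 with the length and GC correction. Leaving out each tumour gave -0.16 to 0.090 for Psmf1, -0.037 to 0.034 for Psme4, -0.11 to 0.33 for Psme2, -0.13 to 0.19 for Psme3 and -0.45 to 0.026 for Psmb10. The median SE was 0.16 in the core and cap together and 0.29 in the immunoproteasome, and with 3 tumours a group differences of several SE, such as Psmb3 at 0.53 ± 0.15, were not called. Depth limits Ifng, with 1 to 26 counts, Psma8 and the pseudogenes.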
